A study of Homo sapiens with 5 samples.

Results

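The 10 genes described here are feedback inhibitors and outputs of the RAS-ERK pathway, chosen by name out of the 64837 entries counted in NCI-H209 cells. They are the dual-specificity phosphatases DUSP4, DUSP5 and DUSP6, the Sprouty genes SPRY1, SPRY2 and SPRY4, the Sprouty-related genes SPRED1 and SPRED2, and the ETS transcription factors ETV4 and ETV5. Of these, 9 passed the filter on low counts, which 20360 genes passed in all, and SPRED1 did not. DUSP5 passed it only through its counts in the co-cultured libraries. NCI-H209 is an established human small-cell lung cancer (SCLC) line that grows with neuroendocrine features. RNA was sequenced from 3 control libraries, labelled untreated, and from 2 libraries of the same cells kept for 24 h in a Transwell chamber with human brain microvascular endothelial cells (HBMECs), so that the 2 cell types shared medium through the membrane without mixing. NCI-H209 cells were grown in RPMI medium with fetal bovine serum and HBMECs in the same with added Nu-serum, and the medium of the co-culture is not given in the sources used here. A single cell line stands for SCLC, and whether control wells held an empty insert is not given in the sources used here. The labels do not say that the libraries came from separate cultures, so the p-values measure the spread between these libraries, which may be technical.

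In the ERK pathway, growth factor receptors activate RAS, which passes the signal through the kinases RAF and MEK to ERK. Active ERK enters the nucleus and turns on transcription, and among its targets are the genes of its own inhibitors: DUSP phosphatases remove the activating phosphates of ERK or its relatives, Sprouty proteins dampen signaling between the receptor and RAF, and SPRED proteins bring the RAS inactivator neurofibromin to the membrane. ETV4 and ETV5, with their paralog ETV1, form the PEA3 group of ETS factors, and their transcription is held down by the repressor CIC when ERK is inactive. For these reasons RNA of this set is widely used as a readout of ERK activity, which itself was not measured in these libraries.

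Of the 10 genes, 7 were higher in the co-cultured cells at an adjusted p under 0.05 (quasi-likelihood test of edgeR, Benjamini-Hochberg adjusted across every gene tested), 0 were lower, 2 were tested without passing, and 1 was not tested. Over all genes tested, 18.4% were called higher and 33.4% were called in either direction. The 10 genes were chosen with earlier results of these data known, so these shares are set side by side without a test. The 7 were DUSP4, DUSP5, DUSP6, SPRY1, SPRY2, SPRY4 and SPRED2, of which DUSP5 passed the filter only through the co-cultured libraries. By the study's threshold, a fold change past 1 in either direction, read here as on the log2 scale, with a p under 0.05, read as unadjusted, 5 of the genes were upregulated and 0 downregulated, where 5.44% and 5.01% of all genes tested were. They were DUSP5, DUSP6, SPRY1, SPRY4 and ETV4. For 8 of the genes the lower co-cultured library exceeded the highest control, as for 29.4% of all genes tested, and the groups were separate in either direction for 59.4%. The median log2 fold change of the 9 tested genes was 1.18, against -0.03 over all genes tested. In bulk RNA, a higher value can come from more RNA per cell or from more cells that carry it, and the 2 cannot be told apart.

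The libraries held 15457071 to 19157348 counts on genes, so that 3 counts, taken as the floor, equal 0.154 to 0.198 CPM (counts per library total after TMM scaling, times a constant). NCI-H209 was checked against 12 neuroendocrine markers, of which 11 had over 3 counts in every library and CHGA had at most 1. Their summed level was 2250 to 2851 CPM in control against 3007 to 3159 CPM with co-culture. Of 12 endothelial markers, 9 had over 3 counts in at least 1 library, with a summed level of 9.575 to 19.3 CPM in control against 12.9 to 13.08 CPM with co-culture, and TIE1, EMCN and ROBO4 had at most 1 count. Only ESAM among the endothelial markers was called higher, with 3, 4 and 6 counts in control against 21 and 14 counts with co-culture and a log2 fold change of 2.14 (adjusted p = 0.00666, edgeR); it passed the filter only through the co-cultured libraries. Of 8 fibroblast markers, 7 had over 3 counts in at least 1 library, with a summed level of 9.779 to 17.03 CPM in control against 23.05 to 26.78 CPM with co-culture. The higher sum rested on THY1, which was called higher, at 7.18 to 8.50 CPM in control against 24.2 and 19.2 CPM. The other 7 summed to 9.78, 9.51 and 1.28 CPM in control against 2.62 and 3.90 CPM. Of these, DCN, LUM and PDGFRB had 19 to 39 counts in control replicates 1 and 2 and at most 3 counts in each of the other libraries. The part of other cells in the values of the 10 genes was not tested.

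Promoter sequence was taken from RefSeq (GRCh38.p14) for windows from 250 bases before to 50 bases after a transcription start. The search covered 10 windows of 6 of the 10 genes. DUSP4 was left out of it, and the source held no window of DUSP5, ETV4 or ETV5. A window each of SPRY1, SPRY4, DUSP6 and SPRED2, which rose, is shown. SPRY2 also rose, but its windows are not shown. A window of ETV1, a paralog of ETV4 and ETV5 that rose, is shown as well. Each window was searched on both strands for 5 motifs, and matches stand in capitals. The motifs were the CIC octamers TGAATGAA and TGAATGGA, found in 1.65% and 1.03% of all 35116 promoter windows, the ETS core CCGGAAG (10.3%), the AP-1 site TGANTCA (7.71%) and the cyclic AMP response element TGACGTCA (1.85%). None of the motifs contains another.
SPRY4, chr5:142324198-142324497, minus strand: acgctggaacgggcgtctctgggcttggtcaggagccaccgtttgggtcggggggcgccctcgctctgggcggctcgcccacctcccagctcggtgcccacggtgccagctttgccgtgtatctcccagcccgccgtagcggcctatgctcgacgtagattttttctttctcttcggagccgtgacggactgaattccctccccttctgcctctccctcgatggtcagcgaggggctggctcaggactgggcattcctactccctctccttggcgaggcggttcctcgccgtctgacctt
SPRY1, chr4:123398136-123398435, plus strand: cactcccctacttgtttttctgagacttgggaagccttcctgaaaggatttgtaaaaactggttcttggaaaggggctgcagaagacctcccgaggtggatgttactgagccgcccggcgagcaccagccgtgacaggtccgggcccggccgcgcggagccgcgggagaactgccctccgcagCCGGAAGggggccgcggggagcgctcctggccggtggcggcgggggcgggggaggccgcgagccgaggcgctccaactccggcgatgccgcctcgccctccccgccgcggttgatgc
DUSP6, chr12:89352452-89352751, minus strand: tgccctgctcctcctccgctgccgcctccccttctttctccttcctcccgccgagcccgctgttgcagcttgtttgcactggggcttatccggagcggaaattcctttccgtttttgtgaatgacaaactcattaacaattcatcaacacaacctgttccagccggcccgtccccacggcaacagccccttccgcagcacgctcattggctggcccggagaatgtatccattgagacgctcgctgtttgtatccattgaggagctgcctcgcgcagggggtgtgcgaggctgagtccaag
SPRED2, chr2:65366729-65367028, minus strand: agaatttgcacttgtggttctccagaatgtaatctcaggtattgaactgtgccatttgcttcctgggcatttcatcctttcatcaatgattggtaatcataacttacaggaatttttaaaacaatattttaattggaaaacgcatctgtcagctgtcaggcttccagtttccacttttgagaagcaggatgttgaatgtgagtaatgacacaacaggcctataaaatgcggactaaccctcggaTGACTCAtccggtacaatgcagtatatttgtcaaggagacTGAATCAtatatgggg
ETV1, chr7:13991376-13991675, minus strand: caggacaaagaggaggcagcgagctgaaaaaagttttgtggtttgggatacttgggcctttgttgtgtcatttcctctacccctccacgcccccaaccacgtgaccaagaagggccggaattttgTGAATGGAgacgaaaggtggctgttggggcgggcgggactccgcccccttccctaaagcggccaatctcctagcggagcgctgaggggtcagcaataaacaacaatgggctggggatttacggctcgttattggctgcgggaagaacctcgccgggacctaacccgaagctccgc

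At least 1 of the motifs was present in 2 of the 10 windows, as in 21.2% of all windows. The SPRY1 window shown held the ETS core with its first base at -67 from its start. It lies inside SPRY1 as annotated, which begins at 123396795 on the plus strand. The other SPRY1 window, which spans that position, held none. The SPRED2 window shown matched the AP-1 pattern TGANTCA at -6, as TGACTCA, and again 35 bases after the start, as TGAATCA. Any base was allowed at N, so these are matches to the searched pattern only. This window lies inside SPRED2 as annotated, which begins at 65432637 on the minus strand. The other SPRED2 window, which spans that position, held none. The windows of SPRY4 and DUSP6 held none, nor did those of SPRY2 and SPRED1. Those of SPRY4 and DUSP6 also lie inside the genes as annotated, which begin at 142326455 and 89353271 on the minus strand. ETV1 had 6 windows, of which the 1 shown held TGAATGGA at -125. These matches describe the letters of the windows, and no binding was measured.

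Among the phosphatases, DUSP5, which acts on ERK in the nucleus, had the largest rise. DUSP5 lies on chromosome 10 from 110497838 to 110511544 on the plus strand of GRCh38, as annotated in GENCODE 29. It had 3, 5 and 3 counts in control against 50 and 30 counts with co-culture, or 0.160, 0.276 and 0.154 CPM against 2.73 and 1.98 CPM. The control libraries were near the floor, DUSP5 passed the filter only through the co-cultured libraries, and the groups were far apart. Its log2 fold change was 3.56 (standard error 0.40, adjusted p = 0.00031, edgeR). The summed counts, 11 in control and 80 with co-culture, gave a ratio per library size of 12.3 with an exact 95% interval of 6.5 to 25.6, which covers counting error only.

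DUSP6, the cytoplasmic phosphatase most selective for ERK, lies on chromosome 12 from 89347232 to 89353271 on the minus strand. It had 36, 26 and 18 counts in control against 52 and 55 counts with co-culture, or 1.91, 1.44 and 0.922 CPM against 2.84 and 3.63 CPM. The groups did not overlap, but control replicate 1 was closer to the lower co-cultured library than to control replicate 3. DUSP6 rose by 1.18 on the log2 scale (standard error 0.32, adjusted p = 0.0193, edgeR). Without control replicate 3 the log2 fold change was 0.94 (adjusted p = 0.0509), and without co-cultured replicate 1 or 2 it was 1.36 (adjusted p = 0.0686) or 1.0 (adjusted p = 0.154), so the call rested on each of these libraries. The antisense gene AC024909.2 overlaps DUSP6. Counted without regard to strand, DUSP6 had fewer counts, 11 to 25 in control and 37 and 39 with co-culture, and a log2 fold change of 1.35 (adjusted p = 0.019).

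DUSP4, a nuclear phosphatase of ERK and of the stress kinases JNK and p38, was the most abundant of the 3 and lies on chromosome 8 from 29333064 to 29350668 on the minus strand. It had 695, 351 and 428 counts in control against 877 and 801 counts with co-culture, or 37.0, 19.4 and 21.9 CPM against 47.9 and 52.9 CPM. Control replicate 1 stood above the other 2 controls and below both co-cultured libraries. DUSP4 rose by 0.95 on the log2 scale (standard error 0.23, adjusted p = 0.0111, edgeR). The call was lost without co-cultured replicate 1 (adjusted p = 0.0613) and without co-cultured replicate 2 (adjusted p = 0.097), with log2 fold changes of 1.03 and 0.88.

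**Figure D1:**
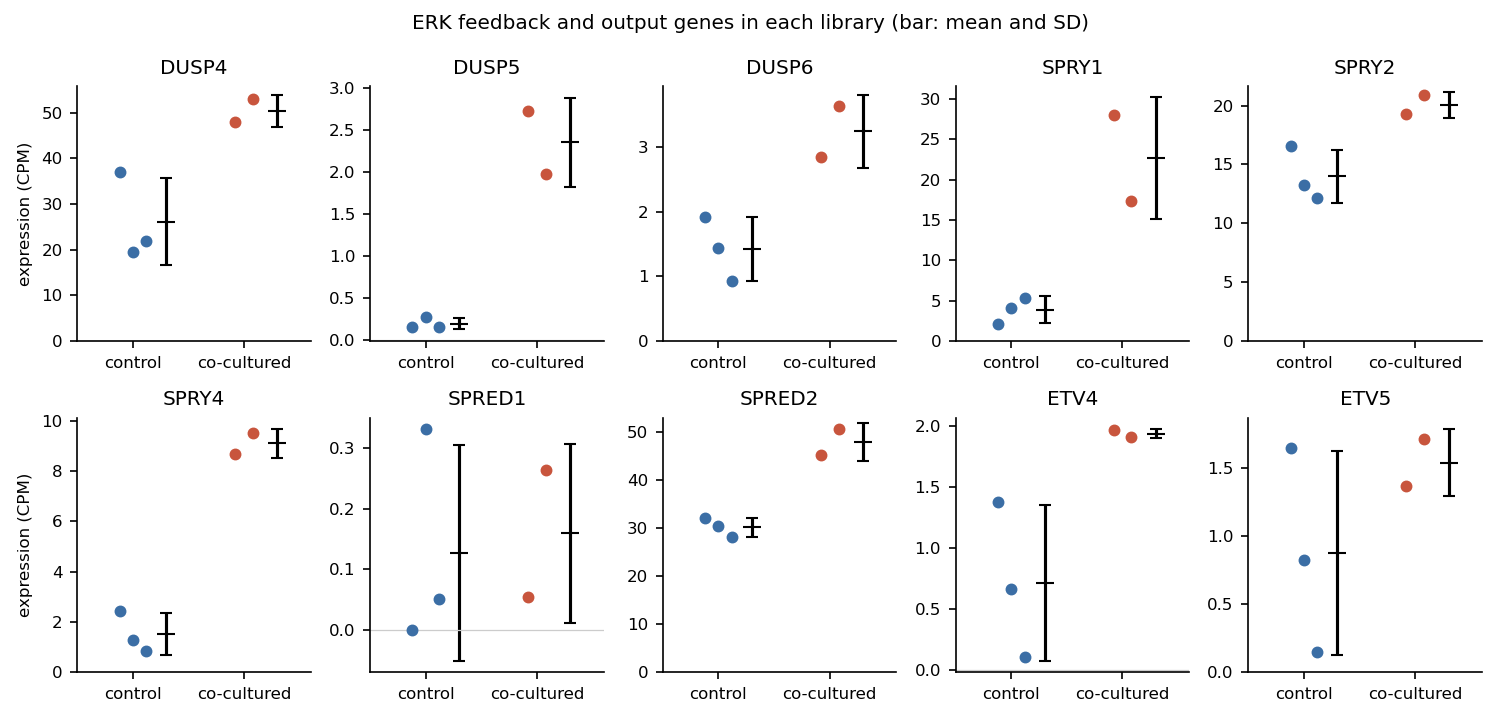
CPM of the 10 genes in each library, with 1 linear axis per gene; points are libraries (3 control in blue, 2 co-cultured in red), and the black marks beside them are group means with bars of 1 SD. For 8 genes both co-cultured points lie above all control points, while ETV5 and SPRED1 overlap.

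Of the Sprouty genes, SPRY4 and SPRY1 rose to a similar extent and SPRY2 by less. SPRY4 lies on chromosome 5 from 142310427 to 142326455 on the minus strand. It had 46, 23 and 17 counts in control against 159 and 144 counts with co-culture, or 2.45, 1.27 and 0.870 CPM against 8.69 and 9.51 CPM. All control libraries were far below both co-cultured libraries. Its log2 fold change was 2.57 (standard error 0.32, adjusted p = 0.000506, edgeR). The antisense gene SPRY4-AS1, counted on its own strand, had 10, 5 and 8 counts in control against 19 and 13 counts with co-culture.

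SPRY1, on chromosome 4 from 123396795 to 123403760 on the plus strand, had 39, 74 and 105 counts in control against 512 and 262 counts with co-culture. In CPM these were 2.07, 4.09 and 5.38 against 28.0 and 17.3. Both groups were spread widely, and the lower co-cultured library was still well above the highest control. SPRY1 rose by 2.56 on the log2 scale (standard error 0.31, adjusted p = 0.000456, edgeR).

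SPRY2, on chromosome 13 from 80335976 to 80340951 on the minus strand, was the main Sprouty gene of the control cells. It had 311, 240 and 238 counts in control against 353 and 316 counts with co-culture, or 16.5, 13.3 and 12.2 CPM against 19.3 and 20.9 CPM. The groups did not overlap, with a narrow gap between control replicate 1 and co-cultured replicate 1. Its log2 fold change was 0.52 (standard error 0.15, adjusted p = 0.0229, edgeR). This call was lost when control replicate 2 (0.49, adjusted p = 0.0653), control replicate 3 (0.43, adjusted p = 0.0669), co-cultured replicate 1 (0.59, adjusted p = 0.0915) or co-cultured replicate 2 (0.47, adjusted p = 0.163) was left out. The paralog SPRY3 had 1 count in all 5 libraries together.

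SPRED2 rose by a small and even amount. It lies on chromosome 2 from 65310851 to 65432637 on the minus strand, and had 603, 549 and 550 counts in control against 826 and 767 counts with co-culture. In CPM these were 32.1, 30.4 and 28.2 against 45.1 and 50.7. The control libraries lay close together, with an SD of 6.48% of their mean, the smallest among the 9 tested genes of the set. Its log2 fold change was 0.67 (standard error 0.097, adjusted p = 0.00109, edgeR).

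SPRED1, on chromosome 15 from 38252326 to 38357249 on the plus strand, was near the floor. It had 0, 6 and 1 counts in control against 1 and 4 counts with co-culture, so a difference was not detectable at this depth. The paralog SPRED3 had 3.16 ± 0.664 CPM (SD, n = 3) in control against 4.82 ± 1.22 CPM (SD, n = 2) with co-culture, and a log2 fold change of 0.62 that did not pass the test (adjusted p = 0.0859, edgeR).

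**Figure D2:**
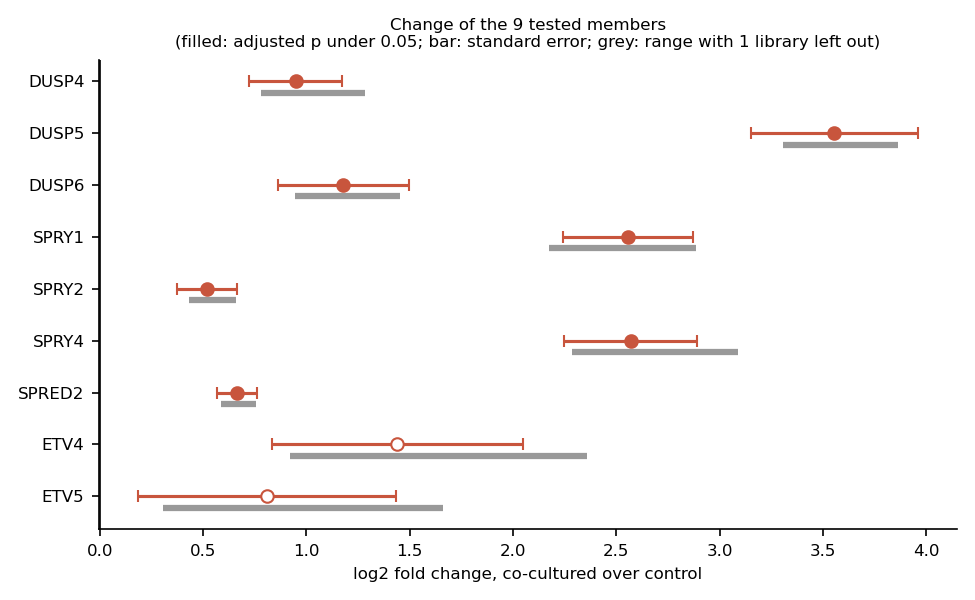
Log2 fold change (co-cultured against control) for the 9 genes tested; bars are 1 standard error, filled points have an adjusted p under 0.05 and grey bars are the range with each library left out in turn. ETV4 and ETV5 have the widest errors, 0.61 and 0.62, and SPRED2 the smallest of the 9 genes, 0.097.

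ETV4 and ETV5 were low, and their control libraries differed from each other by more, relative to the mean, than those of the other 7 tested genes of the set. ETV4 lies on chromosome 17 from 43527844 to 43579620 on the minus strand and overlaps DHX8 on the opposite strand. It had 26, 12 and 2 counts in control against 36 and 29 counts with co-culture, or 1.38, 0.664 and 0.102 CPM against 1.97 and 1.92 CPM. Both co-cultured libraries were above all controls, but the controls ranged from near the co-cultured level to the floor. The log2 fold change was 1.44 (standard error 0.61, unadjusted p = 0.0413, adjusted p = 0.098, edgeR), which met the study's criterion and not the adjusted threshold. Without control replicate 1 it was 2.36 (adjusted p = 0.00101). With no filter beyond 1 count somewhere it stayed at 1.44, with a smaller standard error of 0.365 (adjusted p = 0.000734, edgeR). In that setting the adjusted p also fell for the other tested genes of the set, with fold changes nearly the same. For DUSP4 it went from 0.0111 to 1.66e-14, so the lower value is not particular to ETV4.

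ETV5, on chromosome 3 from 186046308 to 186110318 on the minus strand, overlaps the antisense gene ETV5-AS1. It had 31, 15 and 3 counts in control against 25 and 26 counts with co-culture, or 1.65, 0.829 and 0.154 CPM against 1.37 and 1.72 CPM. Control replicate 1 lay between the co-cultured libraries, so the groups overlapped. The log2 fold change was 0.81 (standard error 0.62, adjusted p = 0.35, edgeR). Without control replicate 1 it was 1.66 (adjusted p = 0.0129).

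The counts of the opposite strand were examined for both genes, because the libraries were directional and reads there come in the main from something other than the RNA of the gene itself. In ETV5 the opposite strand held 15, 16 and 0 counts in control against 0 and 0 counts with co-culture. Of the ETV5 counts on either strand this was 32.6% (exact 95% interval 19.5% to 48.0%) in control replicate 1 and 51.6% (33.1% to 69.8%) in control replicate 2. In control replicate 3 it was 0%, an interval of 0% to 70.8% with only 3 counts, and the 2 co-cultured libraries allowed up to 13.7% and 13.2%. ETV5-AS1 had 13, 4 and 0 counts in control against 0 in both co-cultured libraries. The opposite reads of ETV5 were thus seen in the same libraries, control replicates 1 and 2, that had most of its control counts. The same was seen in 3 of the cell type markers: on the opposite strand KDR had 24 and 20 counts in control replicates 1 and 2 and at most 1 in each other library, TEK had 25 and 23 and at most 2, and PDGFRB had 35 and 15 and at most 1. On their own strand the same 2 libraries also had the most counts of these markers, 24 to 37 against 0 to 12 in the others. Where these reads came from was not tested, and this limits what the control levels of ETV5 in replicates 1 and 2 mean.

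In ETV4 the opposite strand held 56, 38 and 27 counts in control against 24 and 11 counts with co-culture. The share was 68.3% (57.1% to 78.1%), 76.0% (61.8% to 86.9%) and 93.1% (77.2% to 99.2%) in control and 40.0% (27.6% to 53.5%) and 27.5% (14.6% to 43.9%) with co-culture. DHX8, an RNA helicase gene that spans ETV4 on that strand, had 1204 to 1518 counts in every library. Counted without regard to strand, ETV4 and ETV5 had log2 fold changes of 0.03 (adjusted p = 0.96) and 0.15 (adjusted p = 0.894). With control replicate 3 as the only control, a comparison added after the strands had been seen, they were 4.15 and 3.26. These rest on 2 and 3 counts in a single control library without any spread between controls, and are given without a test. No other gene of the 10 had over 6 opposite-strand counts in any library. The part of these reads in the values of ETV4 and ETV5 was not tested.

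**Figure D3:**
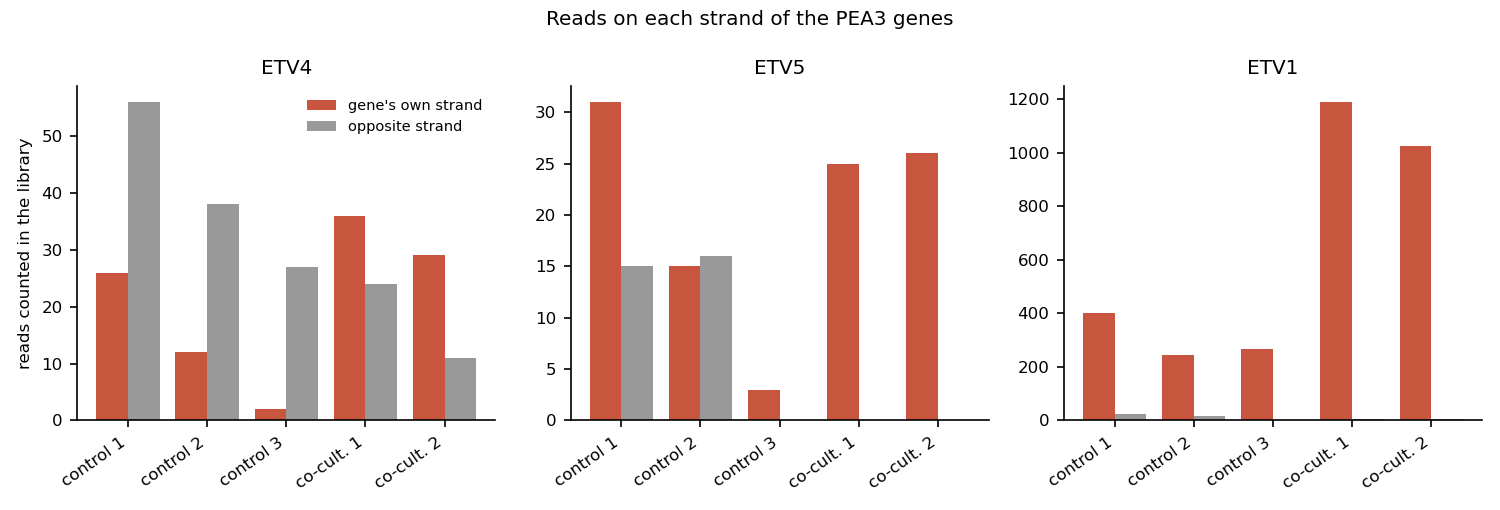
Counts on the expected and on the opposite strand of ETV4, ETV5 and ETV1 in each library. Opposite-strand counts of ETV5 appear in control replicates 1 and 2 (15 and 16) and are 0 in the other 3 libraries.

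ETV1, the paralog of ETV4 and ETV5 and not one of the 10 genes, was far more abundant. It lies on chromosome 7 from 13891228 to 13991425, and had 400, 245 and 265 counts in control against 1189 and 1026 counts with co-culture. In CPM these were 21.3, 13.5 and 13.6 against 65.0 and 67.8. The groups were well apart. ETV1 rose by 2.04 on the log2 scale (standard error 0.17, adjusted p = 8.34e-05, edgeR). Its opposite strand held 23 and 16 counts in control replicates 1 and 2 and 1 to 4 counts in the other libraries, at most 6.13% of its reads. CIC, the repressor of the PEA3 genes, also rose, with a log2 fold change of 0.74 (adjusted p = 0.000371); it was singled out after its values were seen.

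Levels were compared between genes as CPM per kb of exon. In control cells SPRED2 was highest at 5.86 ± 0.379 (SD, n = 3), followed by SPRY2 at 4.61 ± 0.745 and DUSP4 at 3.60 ± 1.31. SPRY1 followed at 0.971 ± 0.42, DUSP6 at 0.308 ± 0.107, SPRY4 at 0.233 ± 0.125, ETV4 at 0.199 ± 0.178, ETV5 at 0.151 ± 0.129 and DUSP5 at 0.0752 ± 0.0265 CPM per kb, with SPRED1 last. The library ranges of SPRY2 and DUSP4 overlapped, as did those of each neighbouring pair from DUSP6 to DUSP5. In co-cultured cells the order began with SPRED2 at 9.29 ± 0.757 (SD, n = 2), DUSP4 at 6.95 ± 0.485, SPRY2 at 6.61 ± 0.368 and SPRY1 at 5.71 ± 1.91 CPM per kb. SPRY4 followed at 1.39 ± 0.0885, DUSP5 at 0.901 ± 0.203, DUSP6 at 0.699 ± 0.121, ETV4 at 0.538 ± 0.0102 and ETV5 at 0.266 ± 0.0428 CPM per kb, with SPRED1 again last. There the ranges of DUSP4 and SPRY2, of SPRY2 and SPRY1, and of DUSP5 and DUSP6 overlapped. In the order of means, DUSP5 thus moved from below DUSP6 and both ETV genes to above all of them, and SPRY1 from well below SPRY2 to a range that overlapped it.

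The make-up of each family was taken from the summed CPM per kb. The 3 phosphatases summed to 5.566, 3.091 and 3.277 in control and 8.264 and 8.833 with co-culture. DUSP4 made up 90.1% ± 3.06 (SD, n = 3) of this sum in control and 81.2% ± 1.85 (SD, n = 2) with co-culture, and DUSP5 2.10% ± 1.19 and 10.6% ± 2.88. The Sprouty sum was 6.339, 5.594 and 5.500 in control and 14.74 and 12.69 with co-culture. SPRY2 held 79.0% ± 6.52 of the Sprouty sum in control and 48.6% ± 7.82 with co-culture, while SPRY1 went from 17.1% ± 8.29 to 41.2% ± 9.54 and SPRY4 from 3.92% ± 1.78 to 10.2% ± 1.72. For SPRED2, the share of the SPRED sum was 91.3% in control and 91.6% with co-culture. The PEA3 sum was 2.879, 1.736 and 1.466 in control and 7.539 and 7.875 with co-culture, of which ETV1 made up 84.7% ± 10.2 and 89.6% ± 0.101. An exact permutation test of 3 against 2 libraries cannot give a p under 0.1, so these shares are given without a test.

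**Figure D4:**
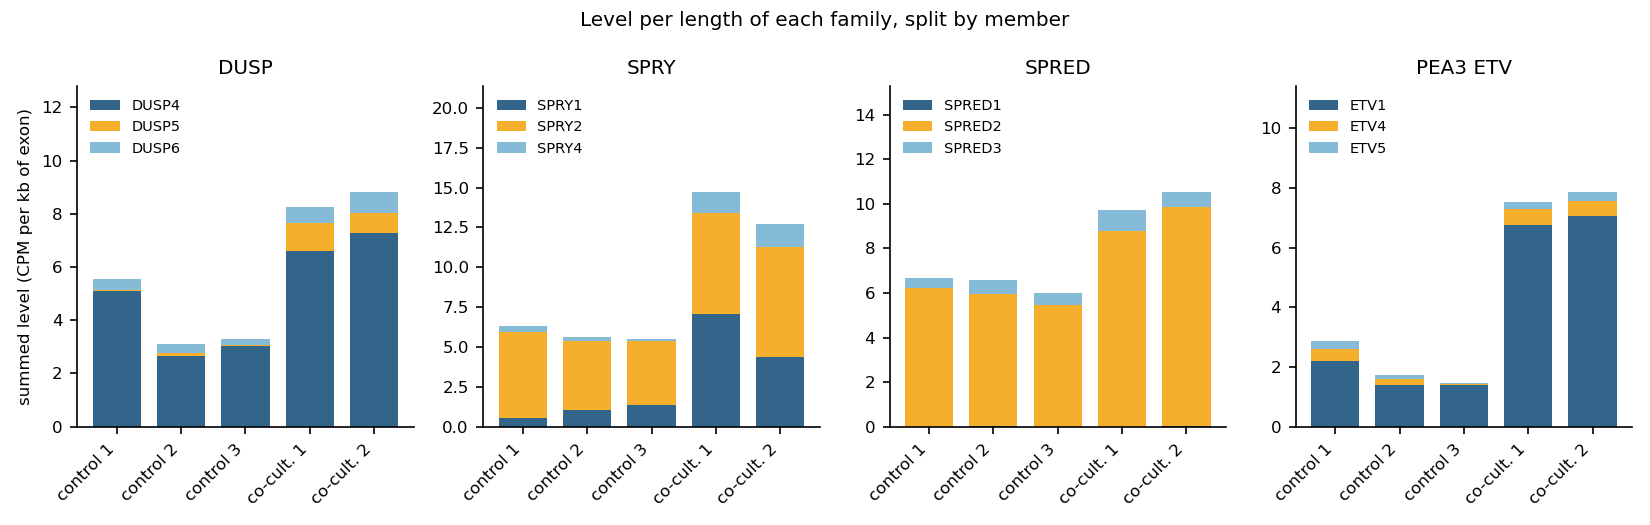
Summed CPM per kb of exon of the DUSP, SPRY, SPRED and PEA3 ETV genes in each library, with the part of each gene stacked. The Sprouty bars go from about equal heights in the 3 controls, mostly SPRY2, to 12.69 and 14.74 with co-culture with a large part of SPRY1.

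Within the control group many of the 10 genes followed a shared order. Control replicate 1 was the highest control for DUSP4, DUSP6, SPRY2, SPRY4, SPRED2, ETV4 and ETV5, and it was the highest control for 41.7% of all genes tested. Control replicate 3 was the lowest control for 7 genes, DUSP5, DUSP6, SPRY2, SPRY4, SPRED2, ETV4 and ETV5, as for 28.0% of all genes tested. For DUSP5 this place came from library scaling alone, as control replicates 1 and 3 both had 3 counts. SPRY2 had 240 and 238 counts in control replicates 2 and 3. SPRY1 went the other way, with its lowest value in control replicate 1 and its highest in control replicate 3. The control SD was 34.8% to 53.5% of the mean for DUSP4, DUSP5, DUSP6, SPRY1 and SPRY4, 16.2% for SPRY2, and 89.6% and 85.3% for ETV4 and ETV5.

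The genes whose pattern over the 5 libraries was most like that of DUSP6 were sought among 9886 protein-coding genes with a mean of at least 10 CPM, by the root mean square difference in log2 CPM centred on each gene's mean. They were SLC7A11, which encodes the cystine transporter xCT, at 0.168, FAM241A at 0.182 and the Wnt ligand gene WNT9A at 0.196. SLC7A11 had 132.1, 82.78 and 76.09 CPM in control against 207.7 and 250.7 CPM with co-culture. It shares with DUSP6 the order control replicate 1, 2 and 3 from highest to lowest.

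The other genes of the pathway were counted by role. Their lists were written from general knowledge but with earlier results of these data known, so the counts are descriptive. Over all genes tested 18.4% were called higher and 15.0% lower. In the cascade from receptor adaptors to ERK and its kinases, 35 of 41 genes could be tested, 13 were higher, 2 were lower and 20 did not pass, with a median log2 fold change of 0.13. KSR1, the scaffold that holds RAF, MEK and ERK together, rose from 36.3 ± 0.550 (SD, n = 3) to 76.9 ± 6.56 CPM (SD, n = 2), with a log2 fold change of 1.08 (adjusted p = 5.55e-05, edgeR). MAP2K1, which encodes MEK1, rose from 48.4 ± 3.01 to 88.1 ± 6.59 CPM. The 2 that fell were the stress- and ERK-activated kinase gene RPS6KA5, by 0.54 on the log2 scale (adjusted p = 0.00677), and RPS6KA6, by 0.26 (adjusted p = 0.0471), named after their values were seen. Without control replicate 1 the number lower was 6, without control replicate 2 or 3 it was 1, and without either co-cultured library it was 0, while the number higher was 8 without co-cultured replicate 1. HRAS and RPS6KA1 are listed at 0 on either strand in every library. The reason is not given in the sources used here, so these zeros are not taken to mean that the genes were silent.

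Of 11 other dual-specificity phosphatases and relatives, 8 could be tested, of which 3 were higher, 1 was lower and 4 did not pass (median 0.11). Without co-cultured replicate 1 these were 1 higher and 0 lower, without replicate 2 they were 2 and 0, and without control replicate 3 they were 2 and 1. DUSP10, a phosphatase of JNK and p38, rose from 13.1 ± 1.65 (SD, n = 3) to 23.1 ± 0.380 CPM (SD, n = 2), and DUSP3 from 24.5 ± 2.61 to 37.6 ± 2.29 CPM. STYX, a pseudophosphatase that binds ERK, fell from 41.6 ± 0.865 to 32.7 ± 0.312 CPM (log2 fold change -0.35, adjusted p = 0.0126, edgeR).

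Of 23 other brakes on receptor, RAS or RAF signaling, 21 could be tested, 9 were higher, 2 were lower and 10 did not pass (median 0.32). Without control replicate 1, 5 were lower, and without either co-cultured library 6 were higher. ERRFI1, the feedback inhibitor of the EGF receptor also called MIG6, had 147, 145 and 177 counts in control against 1821 and 780 counts with co-culture. Both co-cultured libraries were far above the controls but also far from each other. Its log2 fold change was 3.19 (standard error 0.24, adjusted p = 4.99e-05, edgeR). RASAL1, a RAS inactivator, went the other way, from 72.2 ± 5.00 (SD, n = 3) to 23.1 ± 1.61 CPM (SD, n = 2), with a log2 fold change of -1.64 (adjusted p = 2.23e-05). DAB2IP, another RAS inactivator, rose from 26.4 ± 1.49 to 48.6 ± 2.43 CPM. The second that fell, named after its values were seen, was the RAF inhibitor PEBP1 (log2 fold change -0.74, adjusted p = 0.00151).

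Of 40 other genes known to respond to ERK, 29 could be tested, 21 were higher (72.4%), 1 was lower and 7 did not pass, with a median log2 fold change of 1.25. Without co-cultured replicate 2, 14 were higher, and the number lower was 2 without control replicate 1 and 0 without any other library. At the study's criterion 16 were upregulated and 0 downregulated. Among those counted, AREG, HBEGF and LIF passed the filter on low counts only through the co-cultured libraries. GDF15, a secreted cytokine of the TGF-β family, rose from 6.12 ± 1.10 (SD, n = 3) to 28.7 ± 0.360 CPM (SD, n = 2), with a log2 fold change of 2.22 (adjusted p = 3.53e-05, edgeR). KLF4 and EPHA4, the other 2 named by the rule, had log2 fold changes of 1.32 and 2.18. The 1 that fell was PLAUR, the urokinase receptor gene (log2 fold change -0.83, adjusted p = 0.0183), named after its values were seen.

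Of 26 genes, the other ETS factors and CIC, 20 could be tested, 11 were higher, 2 were lower and 7 did not pass (median 0.49). Without co-cultured replicate 1, 7 were higher, and the number lower was 3 without control replicate 1 and 1 without any other library. Beside ETV1, ETS1 rose from 135 ± 16.3 (SD, n = 3) to 275 ± 4.04 CPM (SD, n = 2), with a log2 fold change of 1.03 (adjusted p = 0.000158, edgeR). FLI1 fell from 35.8 ± 1.68 to 9.08 ± 2.02 CPM, a log2 fold change of -1.99 (adjusted p = 4.34e-05). The second that fell, GABPA (log2 fold change -0.29, adjusted p = 0.0202), was named after its values were seen.

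**Figure D5:**
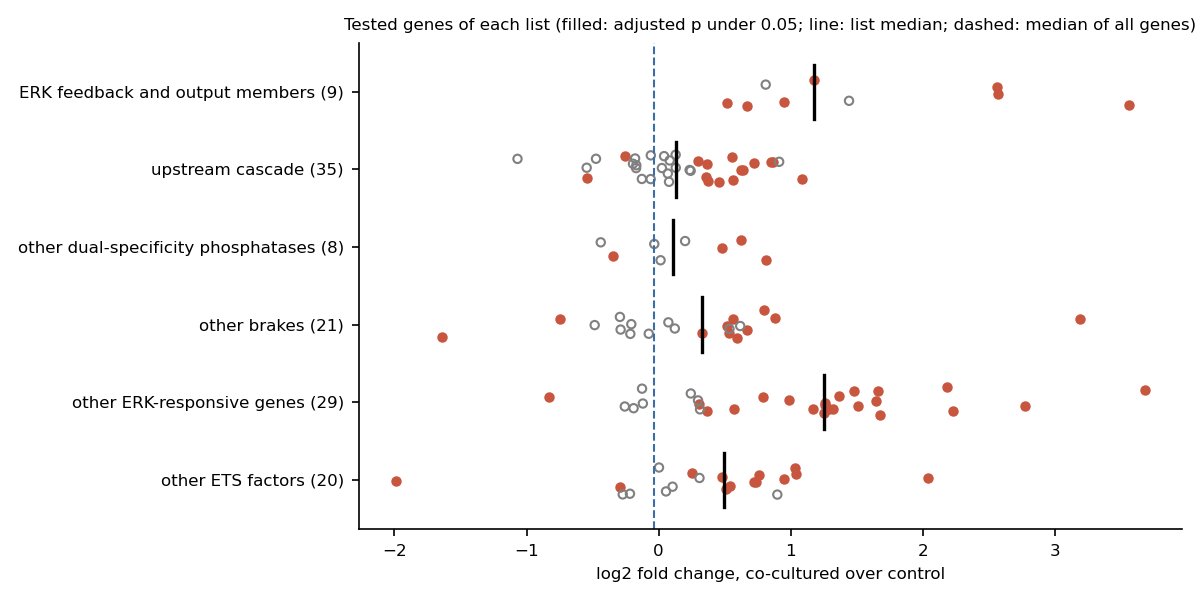
Log2 fold change (co-cultured against control) for each tested gene of the 10 and of the 5 other lists; points are genes, filled where the adjusted p is under 0.05, the black line in each row is the list's median and the dashed line is the median of all genes tested. The ERK-responsive genes and the 10 genes have medians of 1.25 and 1.18, and the other 4 lists 0.11 to 0.49. All lists were chosen with earlier results of these data known.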

How the data were processed

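The authors deposited, for each of 5 NCI-H209 libraries prepared with a directional kit, read counts per gene without normalization, without regard to strand and for each strand, in the layout of STAR. The submitters' processing notes name CASAVA 1.8, STAR 2.6.1b, DESeq2 and GRCh38. Identifiers were those of GENCODE 29, which also gave positions and exon lengths. A second deposited table pairs identifiers with names and holds the authors' normalized mean signal, which equals these counts after median-ratio scaling (largest difference 4.75e-06 percent), and their own fold changes and p-values, which were not used.

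Counts of the expected strand were used. The opposite strand held 6.93% to 7.68% of the reads on either strand. Genes with at least 10 counts in 2 libraries at these depths (filterByExpr, 0.529 CPM) were normalized by TMM and compared with edgeR 4.0.16 (R 4.3.3, limma 3.58.1), quasi-likelihood test, two-sided, Benjamini-Hochberg adjustment over 20360 genes. The rows for reads not assigned to a gene on this strand, 66.4% to 69.3% of the reads of each library, were left out. In the layout of STAR these include unmapped, multi-mapped and ambiguous reads. The common dispersion was 0.01035. CPM are counts over TMM-scaled library totals, and intervals are exact (Clopper-Pearson) and cover counting error only. Steps were tested on simulated data. The alternatives were DESeq2 1.42.0, other normalizations and filters, a replicate block, each library left out, counts without regard to strand, counts minus those of the opposite strand, and protein-coding genes only, and control replicate 3 alone was added after the data were seen. Tables and plots were made with Python 3.11.15, pandas 2.3.3, scipy 1.17.1 and matplotlib 3.10.9.

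The genes and lists were chosen with earlier results of these data known. Genes named beside the 10 are SPRY3, SPRED3, ETV1, up to 3 genes per list with the smallest p among those called whose groups do not overlap, the 3 most like DUSP6, and those said to be named after their values were seen. A further named result is not reported here. The entries of DUSP8 and DUSP14 lie outside the primary assembly.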

Additional observations from a re-analysis of the deposited data

How the results depend on the processing

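DUSP5 was called in all 14 settings in which it could be tested, and SPRY1, SPRY4, SPRED2 and ETV1 in all 15. No called value changed sign. DUSP5 passed the main filter only through the co-cultured libraries. The number of the 10 genes called, 7, was 4 to 9 when each library was left out in turn, with 9 without control replicate 1 and 4 without either co-cultured library, where the lone co-cultured library is assumed to vary like the controls. The 4 were DUSP5, SPRY1, SPRY4 and SPRED2. Without control replicate 1, where 9 of the genes were called, 49.5% of all genes tested were called too, against 33.4% in the main fit. The number at the study's criterion, 5, was 3 to 7 with a library left out. It was 3 with at least 10 counts in every library, a filter that leaves out DUSP5, ETV4 and ETV5. Over all genes, 6809 calls became 2734 to 9897 with a library left out, 3750 higher became 1749 to 5295, 3059 lower became 985 to 4602, and the 65 calls of the other lists became 42 to 79. Upper-quartile normalization gave 3076 higher and 3929 lower genes, with a median log2 fold change over all genes of -0.112. The higher share was 43.9% under it, against 55.1%, and was 63.2% and 64.0% without a co-cultured library.

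The labels do not say whether same-numbered libraries were handled together. The difference of replicate 1 minus replicate 2 had a correlation of -0.154 between the groups over 20360 genes, a single value that cannot settle this. With a replicate block, 5 of the 10 genes were called, without DUSP6 (adjusted p = 0.0598) and SPRY2 (adjusted p = 0.0925), 3 met the study's criterion, and 4824 genes were called in all. In ETV4 the opposite-strand counts exceeded its own in every control, so their subtraction, cut off at 0, set all controls to 0. It then passed the filter only through the co-cultured libraries, so its call in that setting followed from the subtraction and is given without a p-value. SPRED1 and DUSP5 stand near the depth floor in control. Of all values recomputed, 347 stayed on their side of the threshold, within their spread or, for counts, within 1.5 times, 51 moved further, 8 passed only under an alternative and 11 no longer passed. The causes of these shifts were not tested.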

Other observations

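The list of ERK-responsive genes also held ligands of the EGF receptor, which were singled out after their values were seen. TGFA, whose product binds the EGF receptor, had 101, 73 and 67 counts in control against 224 and 230 with co-culture, and a log2 fold change of 1.68 (adjusted p = 0.000418, edgeR). AREG had 14, 8 and 9 counts in control against 46 and 78 with co-culture, a log2 fold change of 2.77 (adjusted p = 0.000993, edgeR). HBEGF had 7, 7 and 10 counts in control against 22 and 23 with co-culture, a log2 fold change of 1.66 (adjusted p = 0.00919). LIF, a cytokine of the IL-6 family, had 4, 1 and 5 counts in control against 40 and 38 with co-culture (adjusted p = 0.000438, edgeR). AREG, HBEGF and LIF passed the filter on low counts only through the co-cultured libraries.

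Among the immediate early transcription factors of the same list, also chosen after their values were seen, JUNB rose from 13.6 ± 1.88 (SD, n = 3) to 32.4 ± 2.82 CPM (SD, n = 2) and FOS from 6.18 ± 1.37 to 13.9 ± 1.22 CPM. EGR1 passed the test with a log2 fold change of 1.65 (adjusted p = 0.0393, edgeR) although its groups overlapped, with 203, 109 and 48 counts in control against 187 and 458 with co-culture. CCND1, which encodes cyclin D1, did not pass the test (log2 fold change -0.19, adjusted p = 0.753, edgeR). MYC had 16, 6 and 4 counts in control against 2 in each co-cultured library and could not be tested.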
